A study of Bos taurus with 3 samples.

Results

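The miRNAs described here are those of the bovine catalogue numbered from miR-2880 upwards, with miR-3956 to miR-3959 left out, of which the table held 2. They were chosen by name alone and come to 91 of the 793 mature miRNAs in the count table, including those without a count. The study sequenced small RNA of large dense-core vesicles, the organelles that store catecholamines and peptides, purified from bovine chromaffin cells of the adrenal gland medulla. The cattle came from a local slaughter, and 500 ng of RNA entered each library. The series holds 3 libraries, labelled as a pair of technical replicates and 1 biological replicate, with no treatment in the labels, and called technical libraries 1 and 2 and the biological library below. Where 3 values are given for a miRNA, they follow that order. The labels do not say which step the technical pair repeats or how many animals stand behind a preparation. The pair was averaged first and stands for 1 preparation, and means and standard deviations are over n = 2 preparations. No library of whole cells was analysed here, so the values describe the vesicle preparations and not enrichment in them.

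A miRNA is cut from a hairpin precursor by Drosha and Dicer, and 1 strand of the resulting duplex is loaded into an Argonaute protein, where it guides the silencing of messenger RNAs. miRNA numbers are given in the order in which sequences are submitted, so a high number marks a late entry in the catalogue. The numbering is shared between species, so it need not follow the order of entry for cattle. Conserved and abundant miRNAs such as let-7 or miR-375 have low numbers, whereas many late entries are known from few species or rest on few reads. A letter after the number marks closely related miRNAs, and the endings 5p and 3p name the arm of the hairpin.

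The libraries held 5546771 and 6251664 counts of mature miRNAs in technical libraries 1 and 2 and 6708654 in the biological library. A count of 0 allows up to 3 counts, which equalled 0.541, 0.480 and 0.447 CPM (counts scaled to a common total of mature miRNA counts) in the same order. Intervals and limits cover counting error only. The endocrine markers miR-375 and miR-7 together took 42.8% to 47.3% of the counts of a library. The 4 vessel wall miRNAs checked (miR-143, miR-145 and both arms of miR-126) took 1.55%, 1.75% and 0.934%. Lists for red blood cells, leukocytes and hepatocytes each stayed at or below 0.110%, and no marker was at 0 in any library.

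Most late-annotated miRNAs had few or no counts in the vesicle preparations. Of the 91, 19 (20.9%) had at least 10 counts in every library, 1 (miR-2904) reached 10 counts in 1 library, 21 stayed below 10 counts in every library, and 50 (54.9%) had no count at all. Over all 793 miRNAs, 343 (43.3%) had at least 10 counts in every library and 267 (33.7%) had none. These shares are descriptions of the catalogue, and the difference between them was not tested.

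Detection differed along the numbering. Of the 25 miRNAs from miR-2881 to miR-2957, none had at least 10 counts in every library and 22 (88.0%) had no count. From miR-3064 to miR-3660, 3 of 17 were detected at that level, from miR-4286 to miR-4680, 1 of 6, and from miR-7691 to miR-8550, 2 of 11. The miRNAs from miR-6119 to miR-6536 were detected most often, with 13 of 32 (40.6%) at 10 counts or more in every library and 10 without a count. For comparison, 269 of 387 miRNAs numbered below miR-2284 (69.5%), 27 of 63 in the ruminant miR-2284 and miR-2285 families (42.9%) and 17 of 241 numbered from miR-2286 to miR-2879 (7.05%) reached that level. The share detected thus did not fall steadily with the number: it was lowest from miR-2286 to miR-2957 and higher again from miR-6119 to miR-6536. The differences between ranges were not tested.

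**Figure D1:**
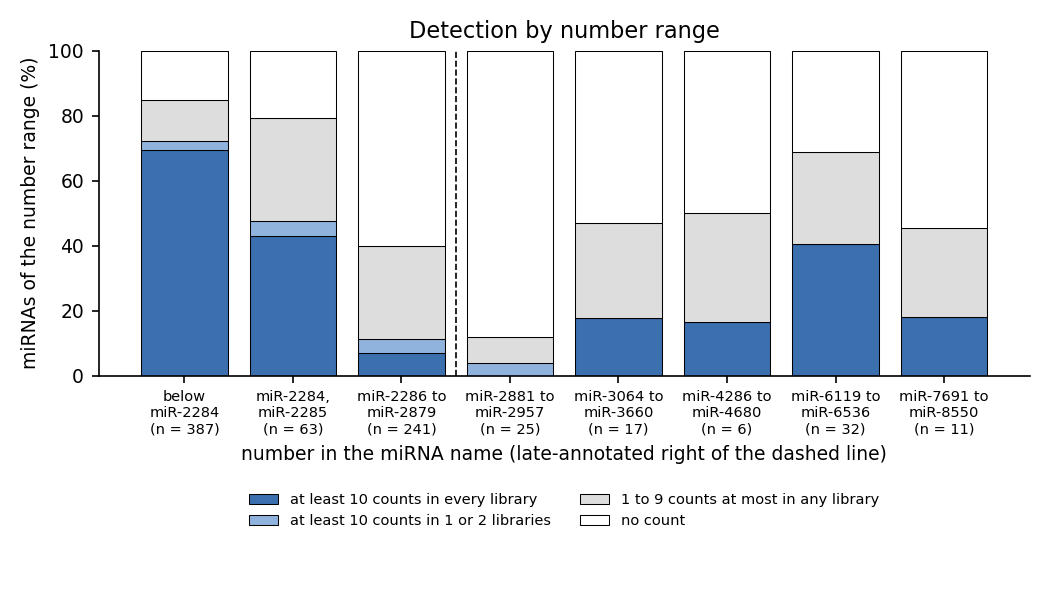
Share of miRNAs (vertical axis, percent) by number of counts, for ranges of miRNA numbers (horizontal axis, n miRNAs each), with the late-annotated ranges right of the dashed line. The range from miR-6119 to miR-6536 reached 40.6% with at least 10 counts in every library, against 69.5% below miR-2284 and 0 of 25 from miR-2881 to miR-2957.

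Together the late-annotated miRNAs held 0.104% ± 0.000216 (SD, n = 2) of the mature miRNA counts. Their share was 0.1030% in technical library 1, with an exact Clopper-Pearson 95% interval of 0.1003 to 0.1057%. It was 0.1056% (0.1030 to 0.1081%) in technical library 2 and 0.1046% (0.1021 to 0.1071%) in the biological library. The intervals, which cover counting error only, overlap, and the shares were not compared by a test. The 5 most abundant made up 74.5%, 72.0% and 77.5% of these counts. miR-7859 alone made up 22.6%, 19.6% and 30.9% of them. Without miR-7859 the share in the biological library was 0.0723%, below the 0.0798% and 0.0849% of the technical pair. The SD of the summed share, 0.000216, is smaller than each counting interval is wide and does not measure how well the share repeats. The SD was 0.00733 for miR-7859 alone and 0.00712 for the rest, which differed between preparations in opposite directions.

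None of the late-annotated miRNAs was among the most abundant of the vesicles. The highest, miR-7859, stood at rank 121 of 793 by mean CPM, and 5 were among the first 200. On average 4 lay at 100 CPM or more and 14 at 10 CPM or more. The median of the 20 with at least 10 counts in a library was 21.2 CPM, against 74.8 CPM for all 367 miRNAs with that count.

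**Figure D2:**
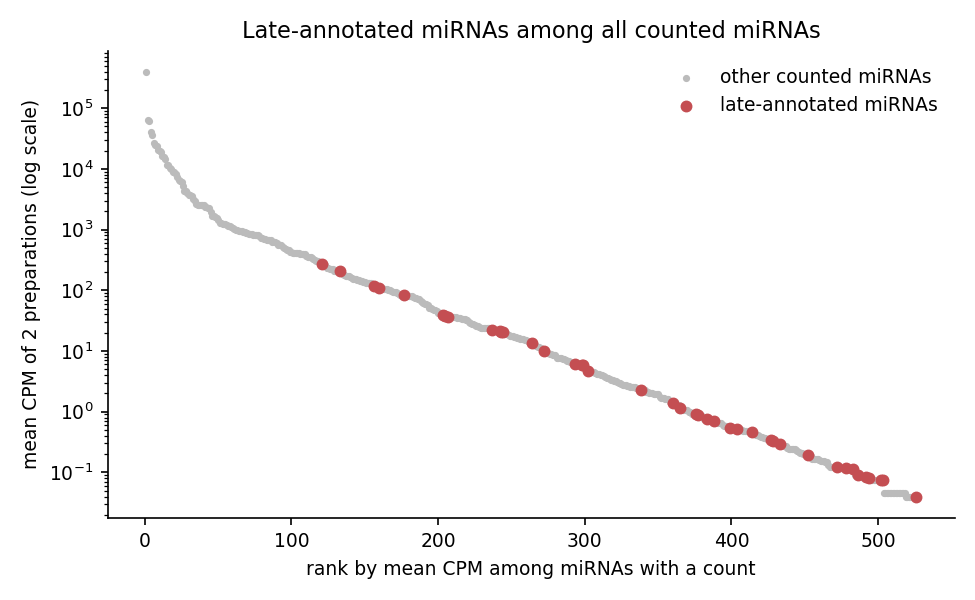
Mean CPM over 2 preparations (vertical axis, log scale) of the 526 miRNAs with a count, in order of rank (horizontal axis), with the 41 late-annotated ones in red and all others in grey. The red points start at rank 121 with 271 CPM and run from there to the end of the curve.

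The 4 miRNAs above 100 CPM were miR-7859, miR-3431, miR-3432a and miR-6119-5p. Hosts are named here from the RefSeq gene table of the ARS-UCD2.0 assembly, whose spans show which genes a hairpin lies within. That table gives no strand, and a host's RNA was not measured. miR-7859 (MIMAT0030434), within PTGR2, a gene for a prostaglandin reductase, had 1289, 1291 and 2168 counts, or 232, 207 and 323 CPM, with a mean of 271 ± 73.3 CPM (SD, n = 2). It was higher in the biological library than in either technical one.

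miR-3431 (MIMAT0017394) lies within GABRE, the gene for the epsilon subunit of the GABA-A receptor, beside miR-224 and miR-452. It had 1178, 1473 and 1286 counts, or 212, 236 and 192 CPM, with a mean of 208 ± 22.8 CPM (SD, n = 2). miR-224 had 332, 348 and 391 CPM and miR-452 had 524, 491 and 437 CPM in the same order, so miR-3431 was the lowest of the 3 in every library. In edgeR's quasi-likelihood test miR-224 was higher in the biological library (log2 fold change of 0.38 ± 0.10 (SE), adjusted p = 0.00078), while miR-3431 (-0.04 ± 0.11, adjusted p = 0.82) and miR-452 (-0.03 ± 0.10, adjusted p = 0.84) did not pass. Whether the neighbours differed from each other in this respect was not tested.

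miR-3432a (MIMAT0017396) is annotated on a pair of hairpins, within HIP1 and within TP53BP1. Its row with the most counts had 711, 785 and 712 counts (128, 126 and 106 CPM), with a mean of 117 ± 14.7 CPM (SD, n = 2). The row of the other hairpin was lower in total by 5.75%. The rows may hold the same reads, so the hairpin of origin cannot be told. The related miR-3432b, whose hairpin lies within no annotated gene, had 83, 86 and 82 counts (14.96, 13.8 and 12.2 CPM), far below miR-3432a in every library.

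Both arms of miR-6119, a hairpin within the ribosomal protein gene RPL39, were counted. miR-6119-5p had 633, 685 and 703 counts (114, 110 and 105 CPM) and miR-6119-3p had 114, 171 and 130 counts (20.6, 27.4 and 19.4 CPM). Their means were 108 ± 4.99 and 21.7 ± 3.23 CPM (SD, n = 2). The 5p arm thus made up 84.7% of the hairpin's counts in technical library 1 (82.0 to 87.2%, exact 95% interval). It was 80.0% (77.2 to 82.7%) in technical library 2 and 84.4% (81.7 to 86.8%) in the biological library. The lowest share was that of a technical library, so the technical pair was further apart than technical library 1 and the biological library.

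miR-6120, within the casein kinase gene CSNK1G2, had counts from 1 arm only. miR-6120-3p had 446, 517 and 569 counts (80.4, 82.7 and 84.8 CPM), and miR-6120-5p had 0 in each. The zeros allow a share of the 5p arm of up to 0.673%, 0.580% and 0.527%. Neither arm of miR-6121 or miR-6122, the other hairpins with both arms in the table, had a count.

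miR-6518 (MIMAT0025536) lies within ADM, the gene of adrenomedullin, a vasodilator peptide first isolated from a tumour of chromaffin cells. It had 190, 275 and 271 counts (34.3, 44.0 and 40.4 CPM). The biological value lies between the technical ones. miR-6517, within DNAAF2, an assembly factor of ciliary dynein, was similar in level with 37.1, 42.1 and 36.4 CPM.

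miR-6523a, within the autophagy gene EPG5, had 281, 311 and 158 counts (50.7, 49.7 and 23.6 CPM). The technical values were close together and the biological one was lower than both. miR-6524, within PDCD4, which encodes an inhibitor of translation, had 126, 175 and 127 counts (22.7, 28.0 and 18.9 CPM). miR-4680, annotated within the same host, had a single count, in technical library 2.

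miR-6529a, within the kinase gene GSK3B, had 88, 137 and 151 counts (15.9, 21.9 and 22.5 CPM). Here technical library 1 stood apart, and technical library 2 was close to the biological library. miR-6123, beside miR-296, had 22.5, 19.7 and 20.0 CPM, and its neighbour miR-296-3p had 177, 240 and 207 CPM in the same order. miR-6528, beside a hairpin of the neuronal miR-129, had 36, 42 and 38 counts (6.49, 6.72 and 5.66 CPM), whereas miR-129-3p had 1140, 1429 and 1142 CPM.

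The other 5 miRNAs with at least 10 counts in every library were miR-7862 within ANKRD6, miR-4286 with a pair of hairpins, miR-6520 within EP400, miR-6516 within a long non-coding RNA and miR-6525 within FASTK. Their mean levels ran from 10.02 CPM for miR-7862 to 2.28 CPM for miR-6525. miR-4286 had 34, 43 and 35 counts in its larger row, and its rows differed in total by 15.2%. miR-2904, the most abundant from miR-2881 to miR-2957, had 10, 8 and 8 counts, with the same counts in each of its 3 hairpin rows.

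**Figure D3:**
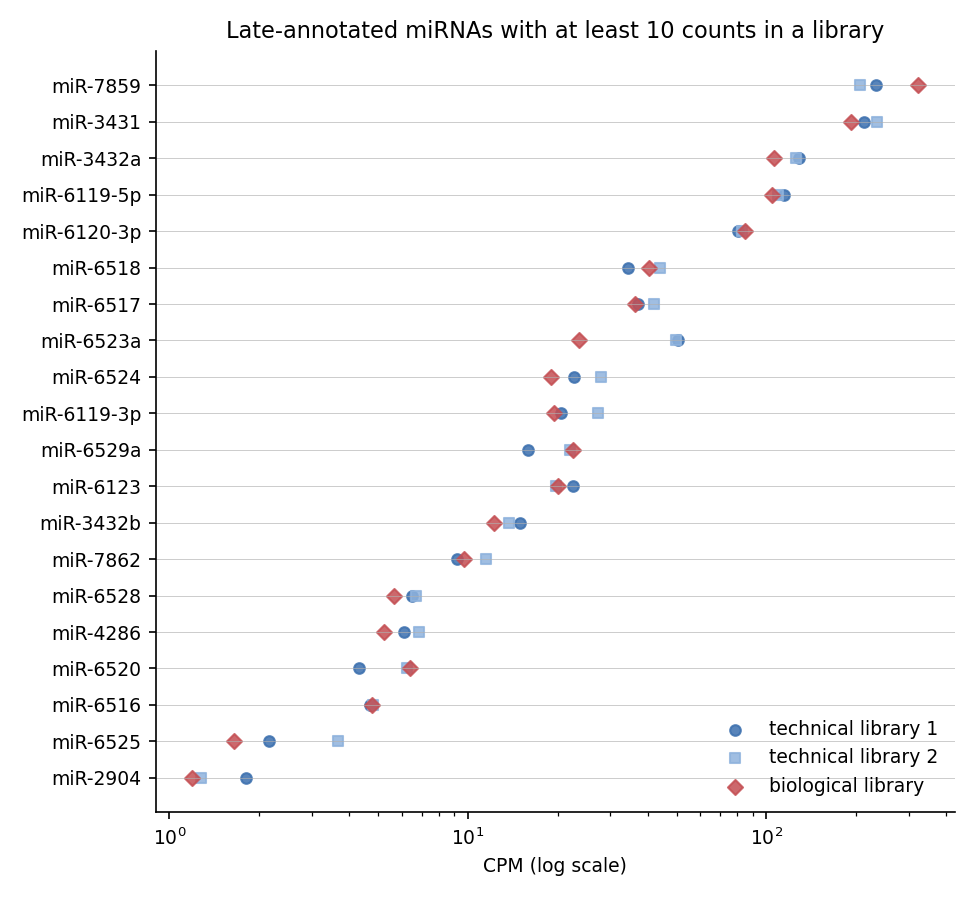
CPM (horizontal axis, log scale) of the 20 late-annotated miRNAs reaching 10 counts in a library, 1 point per library (circle and square, technical libraries 1 and 2; diamond, biological library). The 3 points of a miRNA lie close together for most, while miR-7859 (232, 207 and 323 CPM) and miR-6523a (50.7, 49.7 and 23.6 CPM) show the biological library apart.

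The 21 miRNAs below 10 counts in every library had between 1 and 22 counts over the 3 libraries together. Of these, 10 were counted in all 3 libraries, 6 in a pair of them and 5 in 1. miR-6536, on overlapping hairpins within REV3L, a DNA polymerase gene, had 9, 6 and 7 counts. miR-2887 had 7, 9 and 3 counts and miR-3533, within the actin gene ACTG1, 4, 5 and 7. The test of the biological library against the technical pair, described below, did not include them. Among those with no count were miR-2885, within SYT7, a calcium sensor of vesicle exocytosis, and miR-2900, within the imprinted gene PEG3.

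Of the 97 hairpins of late-annotated miRNAs, 88 could be placed in the gene table, and 63 of these (71.6%) lay within a protein-coding gene. The share was 63.4% for the 707 placed hairpins of other miRNAs. It was 75.0% (15 of 20) for hairpins with at least 10 counts in every library and 69.6% (32 of 46) for those with no count.

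A group of late-annotated hairpins overlaps the hairpin of another miRNA in the gene table. Most of them had no count, while most partners were counted in every library. Of the 13 late-annotated miRNAs with such an overlap, 9 had no count, against 41 of the other 78, a difference that was not tested. For 7 of the 13 the partner is not itself late-annotated, and 6 of these 7 had no count in any library. miR-2957 overlaps miR-152, which had 14786, 17232 and 16176 counts. miR-3596 overlaps let-7b, which had 7169, 8407 and 8581 counts. miR-3600 overlaps the hairpin of miR-22-3p, with 3728, 4209 and 3409 counts. All of these partners are conserved miRNAs, and the late entries beside them stayed at 0 in all 3 libraries.

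miR-3578 overlaps miR-382 of the imprinted DLK1-DIO3 region, which had 2836, 3047 and 4166 counts. miR-3604 has 2 hairpins, which overlap MIR199A-2 and MIR199B within the dynamin genes DNM2 and DNM1, and miR-199a-3p, the miRNA with the most counts on both, had 16370, 19053 and 13306 counts at the first. Its rows on several hairpins held nearly the same counts, so they are not independent partners. miR-3601 overlaps miR-542, but there the partner was also near 0, with 0, 1 and 2 counts for miR-542-5p. miR-3120 overlaps miR-214 within DNM3, and it alone among these 7 was counted, with 2, 4 and 1 counts against 269, 299 and 124 for miR-214. miR-3120 is known as a mirror miRNA, cut from the transcript of the strand opposite to miR-214.

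In 3 further cases both overlapping hairpins are late-annotated, and the counts stood under the letter a. miR-6523a had 281, 311 and 158 counts, and miR-6523b had 0. miR-6529a had 88, 137 and 151 counts against 0 for miR-6529b, and miR-3613a had 7, 2 and 4 against 0 for miR-3613b. Where overlapping entries share sequence, reads could have been given to either, and how the authors' counting dealt with this is not given in the sources used here.

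**Figure D4:**
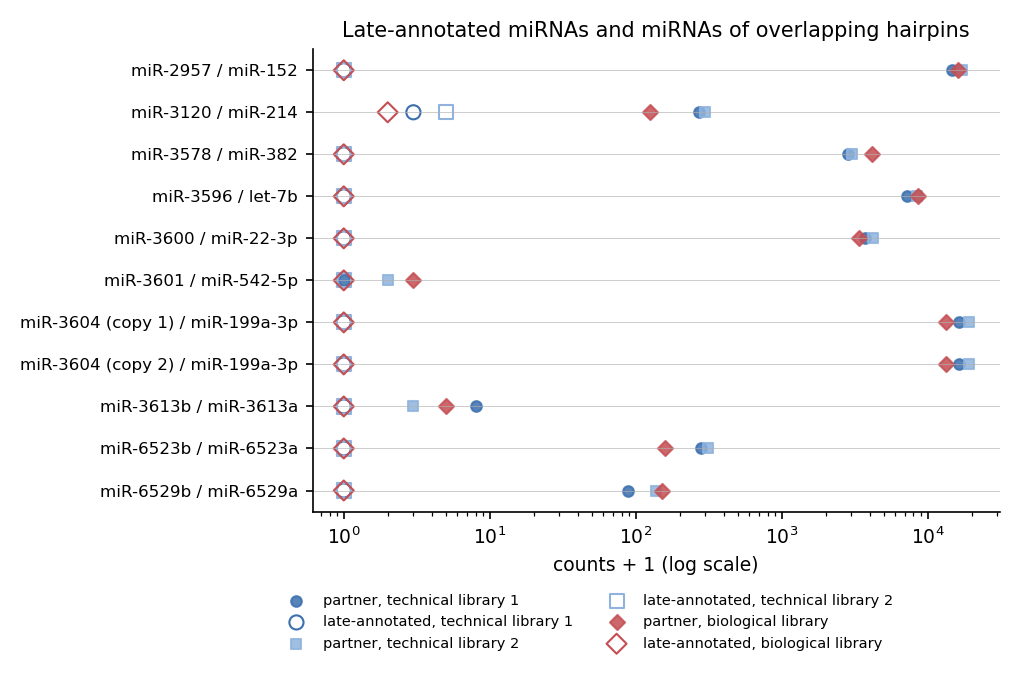
Counts + 1 (horizontal axis, log scale) of late-annotated miRNAs (open symbols) and of the most counted miRNA of the overlapping hairpin (filled symbols), 1 symbol per library. Open symbols lie at 1, that is at a count of 0, except for miR-3120 (2, 4 and 1 counts), while partners reach 19053 counts (miR-199a-3p).

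The replicates address how far these levels repeat. One preparation has a single library, so only the technical pair gave an estimate of spread (1 residual degree of freedom). The biological library was taken to vary like that pair. The prior degrees of freedom in edgeR, the weight given to spread pooled over all miRNAs tested, were infinite in this fit. A miRNA's own technical spread thus had no weight in its standard error or p-value. The p-values therefore compare these libraries against pooled technical spread. For scarce miRNAs such as miR-6525 and miR-2904, edgeR by default used counting error where that gave a larger p-value. The p-values cannot show whether preparations or animals differ. Of the 20 late-annotated miRNAs reaching 10 counts in a library, 2 passed this test. miR-7859 was higher and miR-6523a lower in the biological library than in the technical pair (quasi-likelihood test in edgeR, p adjusted by Benjamini-Hochberg over all 367 miRNAs tested, threshold 0.05). Over all miRNAs tested, 37.9% were called, 17.7% higher and 20.2% lower. The count of 2 in 20 lies below that background. Late-annotated miRNAs were also scarcer than the rest, and fewer calls were made among scarce miRNAs: of those below 100 CPM on average, 28.5% of all 200 and 1 of 16 late-annotated ones were called, and at 100 CPM or more, 49.1% of all 167 and 1 of 4. No test compared the late-annotated miRNAs with the rest. The median log2 fold change was 0.01 for the 20 as for all tested.

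miR-7859 was higher by a log2 fold change of 0.74 ± 0.10 (SE) in the biological library (edgeR, adjusted p = 1.6e-10). Over 6 alternative fits its adjusted p lay between 3.7e-09 and 0.020 and its log2 fold change between 0.56 and 0.75. The log2 fold change was 0.61 without technical library 2 and 0.85 without technical library 1, values with no test that each lie more than 1 SE from the 0.74 of all libraries. miR-6523a fell by 0.91 ± 0.17 (SE) on the log2 scale in the biological library (edgeR, adjusted p = 2.2e-06). Over 5 alternative fits its adjusted p lay between 5.4e-09 and 0.0081. The log2 fold change of miR-6523a was -0.97 without technical library 2 and -0.88 without technical library 1. In bulk RNA, fewer cells or vesicles of a kind and less of a miRNA in each cannot be told apart. All marker lists lay outside the range of the technical pair in the biological library, as did 83.7% of all 367 miRNAs tested. None of the miRNAs of these lists was at 0. The endocrine list (2 miRNAs) was higher in the biological library, at 44.1%, 42.8% and 47.3% of the counts, as was the red blood cell list (3 miRNAs), at 0.0898%, 0.0837% and 0.110%. The vessel wall list (4 miRNAs) was lower there, at 1.55%, 1.75% and 0.934%, as was the leukocyte list (5 miRNAs), at 0.0078%, 0.0075% and 0.0051%. The single hepatocyte marker was also lower but near the floor, with a lowest count of 1 and a share at or below 0.000108% in every library. Each share is a sum in which abundant miRNAs weigh most. On average miR-143 had 11445 CPM against 1.93 for miR-145, and miR-486 had 962 CPM against 19.4 for miR-451. The part of these cell types in the values of miR-7859 and miR-6523a was not tested.

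The other 18 miRNAs did not pass, with adjusted p-values from 0.072 to 0.94 in edgeR's test. Of all 20, 17 had a log2 fold change below 0.5 in size, 10 were above 0 and 10 below. The exception beside the called pair was miR-6525 at -0.67 ± 0.41 (SE) with 12, 23 and 11 counts. Its log2 fold change was -0.26 without technical library 2 and -0.96 without technical library 1, so it lay beyond 0.5 only with technical library 2 in the fit. Without technical library 2, miR-6520 also lay beyond 0.5, at 0.70. miR-6529a was nearest to the threshold, at 0.42 ± 0.19 (SE) with an adjusted p of 0.072 (edgeR). It passed without a count filter (edgeR, adjusted p = 0.046), and over 5 alternatives its adjusted p lay between 0.046 and 0.50. Its log2 fold change was 0.64 without technical library 2 and 0.24 without technical library 1, so its size depended on which technical library was kept. Standard errors ran from 0.10 for miR-7859 to 0.46 for miR-2904. For scarce miRNAs such as miR-6525 and miR-2904 they were smaller than counting error alone would give, and so understate the uncertainty.

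**Figure D5:**
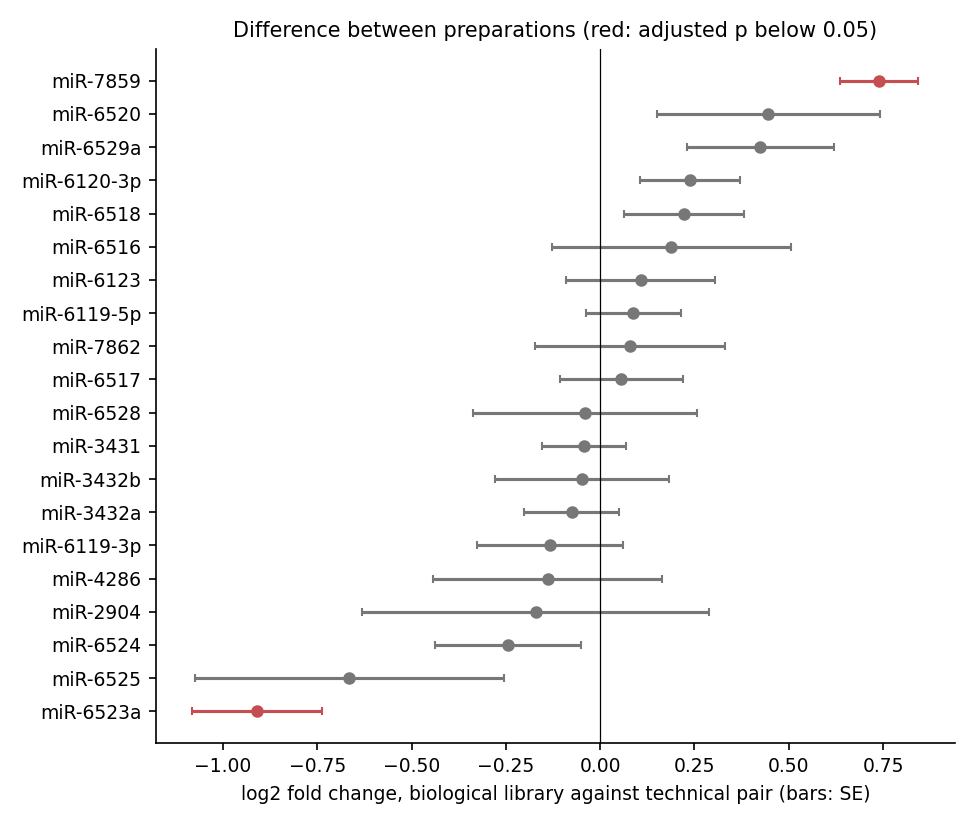
Log2 fold change of the biological library against the technical pair (horizontal axis, bars are SE) for the 20 late-annotated miRNAs tested, in red where the adjusted p was below 0.05. miR-7859 at 0.74 and miR-6523a at -0.91 are the 2 in red, and 17 of the 20 lie within 0.5 of 0.

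In CPM, the biological library lay outside the range of the technical pair for 16 of the 20, above it for 4 and below it for 12. The background was 83.7% of all 367 miRNAs tested, which was not split by direction. The median log2 ratio of the biological library to the technical mean, with 1 CPM added, was -0.155 for the 20 and -0.163 for all tested. Lower CPM in the biological library was thus not particular to late-annotated miRNAs. CPM are not corrected for the composition of a library, and TMM scaling, which is, placed the biological library 0.18 log2 units higher. The median absolute log2 ratio, with 1 CPM added, was 0.17 between the technical libraries and 0.22 between the biological library and their mean for the 20 late-annotated miRNAs, against 0.11 and 0.28 for all tested. For late-annotated miRNAs below 100 CPM the values were 0.24 and 0.21, and for all 200 miRNAs below 100 CPM they were 0.16 and 0.35. The first value sets a single library against another, whereas the second sets a single library against a mean, which holds less noise. The first and second values are therefore not directly comparable in size.

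Without a count filter 2 late-annotated miRNAs were higher (11.0% of all 526 tested), and with hairpin rows summed 2 were lower (18.6% of all 370). With only miRNAs of at least 100 CPM fitted none of the 4 late-annotated ones was lower (26.3% of all 167), since miR-6523a was then not tested.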

How the data were processed

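Raw read counts were deposited for 919 rows, each a mature miRNA on a hairpin. The authors' CPM in the same table equal count over column total to within 0.0050. The authors' log2 values cover the 459 rows above 1 CPM in at least 2 libraries and 19 of the 91 miRNAs described. Per the submitters' processing notes, the build was UMD3.1 and edgeR was used. The aligner, counter and miRBase release: not given in the sources used here.

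A mature miRNA with several rows was represented by the row with the most counts. Of 8 late-annotated miRNAs with several rows, 5 were counted and 3 of these had identical rows. CPM were taken over mature miRNAs. The test used edgeR 4.0.16 (R 4.3.3, TMM, quasi-likelihood, Benjamini-Hochberg at 0.05) on 367 miRNAs reaching 10 counts in at least 1 library. It was also run on simulated data in which all 3 libraries varied alike. Such data cannot check whether the biological library varies like the technical pair. The standard error is the size of the log2 fold change over the square root of F. It can be smaller than counting error for scarce miRNAs, and their p-values need not follow from it. Alternatives were library totals, DESeq2 size factors, DESeq2 1.42.0, no count filter, a mean of at least 100 CPM, the sum over rows and leaving out a library. Hairpins were placed by name in the RefSeq gene table of ARS-UCD2.0, a build other than the files', used only for names and for which genes overlap or lie within 10 kb. Named miRNAs are the 15 with the highest mean CPM, the called ones, the most abundant of each number range and those with both arms in the table. Others were named after their values were seen. The miRNAs, lists and rules were chosen with earlier results of these data known. Whether replicates of a label came from separate animals is not stated, and the planned sequence features were not analysed here.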

Additional observations from a re-analysis of the deposited data

How the results depend on the processing

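With 1 count in place of 10 in every library, 30 late-annotated miRNAs were detected in place of 19, and with the other thresholds, summed rows or a library left out between 14 and 21. Their share of counts was 0.0883% with rows summed and 0.0773% without miR-7859, and lay between 0.1038% and 0.1051% with a library left out. miR-7859 and miR-6523a passed in every alternative fit that included them. The count of higher miRNAs became 2 without a count filter (miR-6529a was added), and that of lower ones 2 with rows summed (miR-2887, whose rows repeat the same counts, was added) and 0 with only miRNAs of at least 100 CPM, which left out miR-6523a. Of 123 alternative fold changes of the named miRNAs, 119 stayed on their side of the threshold or within their error and none reversed a called direction. The other 4 were 0.61 and 0.85 for the called miR-7859 with a technical library left out, and 0.64 (technical library 2 left out) and 0.40 (no count filter, then called) for miR-6529a. 11 changed sign without being called. Calls without a library could not be tested, since 2 libraries leave no residual degree of freedom. No paired analysis was possible because no label links a technical library to the biological one. Over all miRNAs the smallest adjusted p in edgeR moved from 5.3e-32 to 0.0030 when library totals replaced TMM. The prior degrees of freedom also changed there, from infinite to 4.3. With DESeq2 size factors in edgeR they were 5.04 and the smallest adjusted p was 0.0014, while the median log2 fold change shifted by -0.007. Without a count filter they stayed infinite, with a smallest adjusted p of 5.5e-28. The parts of scaling and prior degrees of freedom were not tested. Adjusted p-values serve as a threshold only.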
